A study of Mus musculus with 64 samples.

Results

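Hippocampus was compared with prefrontal cortex in untreated Tg2576 mice, that is, in Tg2576 mice that received vehicle and no drug. The sample titles chose the 16 arrays, of 64 in the series: 8 arrays of hippocampus and 8 of prefrontal cortex, which the study's design text calls frontal cortex. Each array held total RNA of a microdissected, snap-frozen brain region. The mice were of the B6SJLF1 strain, an F1 cross of C57Bl/6 and SJL, were given as 4 months old and had carried a minipump that delivered vehicle under the skin for 28 days. All 16 samples came from mice with the Tg2576 transgene, which overexpresses a mutant human amyloid precursor protein. As background, this transgene runs under a prion protein promoter, and amyloid plaques appear in the line later in life. The vehicle-treated mice were set beside Tg2576 mice infused with PF-04447943, an inhibitor of the phosphodiesterase PDE9A, and beside wild-type (WT) littermates that received vehicle, again with 8 arrays per region.

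The hippocampus is an old, layered part of the cortex that serves memory of places and events. It holds granule cells in the dentate gyrus and pyramidal cells in the fields CA1, CA2 and CA3, and it borders a ventricle lined by ependyma and choroid plexus. The prefrontal cortex is built of stacked layers of pyramidal neurons that project to other cortical areas, the striatum, the thalamus and the brain stem. Both hold inhibitory neurons, glia and blood vessels, so a difference between the dissected pieces mixes the make-up of the tissue with the level per cell: more cells of a type and more RNA per cell cannot be told apart here.

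Values are log2 of the deposited intensity, and a difference is hippocampus minus prefrontal cortex, so a log2 difference of 1 is a 2-fold higher intensity in hippocampus. A gene was called where limma's moderated test, over 12950 genes, gave an adjusted p under 0.05. Median intensity per array ran from 95.5 to 100.2 in hippocampus and from 92.5 to 100.7 in cortex. Probe sets with 2 separate levels among the mice matched each of the 8 hippocampal arrays to the cortical array of the same number, so the arrays of equal number were taken as 1 mouse. The signal range, the interquartile range of log2 values, averaged 3.52 ± 0.12 in hippocampus and 3.70 ± 0.15 in cortex (SD, n = 8 each), a difference of -0.180. This passed as 2 unpaired groups (two-sided exact permutation p = 0.0207) but not within the 8 pairs of equal number (exact paired permutation p = 0.109), of which 5 were lower in hippocampus. The difference was -0.420 in the arrays numbered 1 to 4, lower in 4 of 4 pairs (exact paired permutation p = 0.125, the smallest that 4 pairs allow), and 0.060 in those numbered 5 to 8, lower in 1 of 4 pairs (exact paired permutation p = 0.375).

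In hippocampus, 2730 genes (21.1%) were higher than in cortex and 4384 (33.9%) were lower, together 7114 of 12950 genes (54.9%). Most differences were small, with a median size of 0.32 among the called genes. A difference of at least 2-fold was called for 391 genes (3.02%), 144 higher (1.11%) and 247 lower (1.91%). At 4-fold or more stood 35 genes higher and 32 lower, and at 8-fold or more 11 higher and 1 lower. The arrays of the regions did not overlap for 351 of the 391 genes, against 1886 of all 12950 (14.6%), and 143 of the 144 higher and 240 of the 247 lower genes pointed the same way in all 8 mice. The 391 were picked for size in these same arrays, so these counts describe the class and are no separate support. The share of all genes that pointed 1 way in all 8 mice was not counted. The split of the calls depended on scaling: 38.4% of the called genes were higher in hippocampus as deposited, 51.3% after quantile normalization and 51.6% with the signal range as a covariate, while the median over all genes, -0.06 as deposited, moved between -0.09 and 0.00. In the 2-fold class, 144 higher and 247 lower as deposited, the counts were 167 and 218 after quantile normalization and 166 and 186 with the signal range as a covariate. They were 145 and 398 within arrays 1 to 4 and 188 and 185 within arrays 5 to 8. The median over all genes was -0.17 within arrays 1 to 4 alone and 0.02 within arrays 5 to 8 alone, and the region difference of 5192 genes differed between these sets of numbers (limma, adjusted p under 0.05). All 391 genes of the 2-fold class kept their sign in both sets, 370 were called in both, and 270 were called and 2-fold in both. The class was picked in these same arrays, so its agreement between the sets is no separate support. Of all 7114 called genes, also picked in these arrays, 6369 kept their sign in both sets and 2227 were called in both.

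The largest differences toward hippocampus included several genes known from dentate granule cells. Dsp, which encodes desmoplakin, a linker of junctions to intermediate filaments, read 7.63, 8.95 and 9.31 in hippocampus and 4.08, 4.57 and 4.83 in cortex (lowest, median and highest of 8 arrays, as in the sentences that follow). Lct, the intestinal lactase, read 8.82, 9.20 and 10.06 in hippocampus and 4.86, 5.51 and 5.89 in cortex. C1ql2, a secreted C1q-like synaptic protein of mossy fibres, read 9.22, 9.73 and 10.14 in hippocampus and 5.67, 5.98 and 6.15 in cortex. All 8 hippocampal arrays lay above all 8 cortical arrays for each of these genes. Their cortical means were 4.51 (Dsp), 5.51 (Lct) and 5.92 (C1ql2). These lay under the filter level of 5.93, which was applied to the mean over all arrays of the series. The genes thus passed the filter through their level in other arrays, and such dim cortical values limit what the sizes show. The differences were 4.27 ± 0.35 for Dsp (adjusted p = 1.01e-15), 3.82 ± 0.30 for Lct (adjusted p = 3.02e-16) and 3.78 ± 0.21 for C1ql2 (adjusted p = 9.87e-22), as estimate ± SE.

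Prox1, the transcription factor that sets granule cell identity, read 7.11, 7.47 and 7.79 in hippocampus and 5.12, 5.28 and 6.10 in cortex, with no overlap. Its difference was 1.91 ± 0.24 (adjusted p = 1.54e-09), and its cortical mean, 5.50, likewise lay under the filter level of 5.93. Counts in each list are to be read beside the shares of all tested genes, 21.1% higher and 33.9% lower in hippocampus. Of 15 tested dentate granule cell genes, 7 were higher and 4 lower in hippocampus, with a median difference of 0.33. Calb1, which encodes the calcium buffer calbindin and is a marker of granule cells and also of upper cortical layers, was among the lower ones at -0.71 ± 0.10. It was chosen after its values were seen, as were Wfs1, Pou3f1, Ppp1r1b, Htr1a, Nos1, Il16, Ighm and Ptprk. The lists, their members and the rule for naming genes were likewise chosen with earlier results of these data known.

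The CA1 genes were mostly higher in hippocampus. Of 8 tested, 6 were higher in hippocampus and none was lower, with a median difference of 1.22. Spink8, a secreted serine protease inhibitor, read 8.82, 9.75 and 10.60 in hippocampus and 5.48, 5.88 and 6.29 in cortex, and Fibcd1, a membrane receptor for chitin, read 9.21, 9.83 and 10.16 in hippocampus and 5.77, 6.29 and 6.76 in cortex. Neither gene overlapped between the regions, and the differences were 3.83 ± 0.32 (adjusted p = 1.87e-15) and 3.44 ± 0.22 (adjusted p = 1.73e-19). The cortical mean of Spink8, 5.92, lay under the filter level of 5.93. Man1a, a mannosidase of N-glycan trimming, was higher by 1.31 ± 0.15, the POU factor Pou3f1 by 1.12 ± 0.19 and Wfs1, the wolframin gene, by 0.61 ± 0.18. Wfs1 differed by -0.03 within arrays 5 to 8 and did not pass there. Dcn, the proteoglycan decorin, which fibroblasts of the meninges also make, was higher by 1.79 ± 0.39.

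The CA2 and CA3 lists held genes on both sides. Rgs14, a regulator of G protein signalling that restrains plasticity in CA2, was higher by 1.08 ± 0.15 (adjusted p = 2.92e-08), and the calcium-binding protein gene Necab2 by 1.21 ± 0.22 (adjusted p = 9.63e-06). Pcp4, a calmodulin regulator listed for CA2 that deep cortical neurons express too, was lower: it read 11.56, 11.86 and 12.63 in hippocampus and 12.92, 13.21 and 13.34 in cortex, with no overlap and a difference of -1.23 ± 0.11. Of the 7 tested CA3 genes, 4 were higher and 3 lower. Homer3, a scaffold of metabotropic glutamate receptors, read 8.30, 8.79 and 9.05 in hippocampus and 6.12, 6.34 and 6.54 in cortex, a difference of 2.39 ± 0.16 (adjusted p = 2.81e-18). Coch, a secreted matrix protein best known from the inner ear, went against its place on the CA3 list: it read 5.22, 5.91 and 6.84 in hippocampus and 8.35, 8.93 and 9.35 in cortex, without overlap, a difference of -2.90 ± 0.30 (adjusted p = 3.39e-12).

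The 12 largest differences toward hippocampus also held genes of other kinds. Cabp7, a calcium-binding protein of the calmodulin family, read 11.95, 12.22 and 12.38 in hippocampus and 8.18, 8.53 and 8.88 in cortex, a difference of 3.64 ± 0.21 (adjusted p = 3.37e-21). Gpr161, a G protein-coupled receptor of the primary cilium, was higher by 2.89 ± 0.24. Its array 3 in hippocampus, at 9.17, lay below the other 7, which started at 9.78. Gm2115, a locus without an assigned function in the annotation used here, was higher by 3.02 ± 0.23. Ttr, Npy2r, Shisa6 and Htr4 complete the 12 and are described with their groups.

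**Figure D1:**
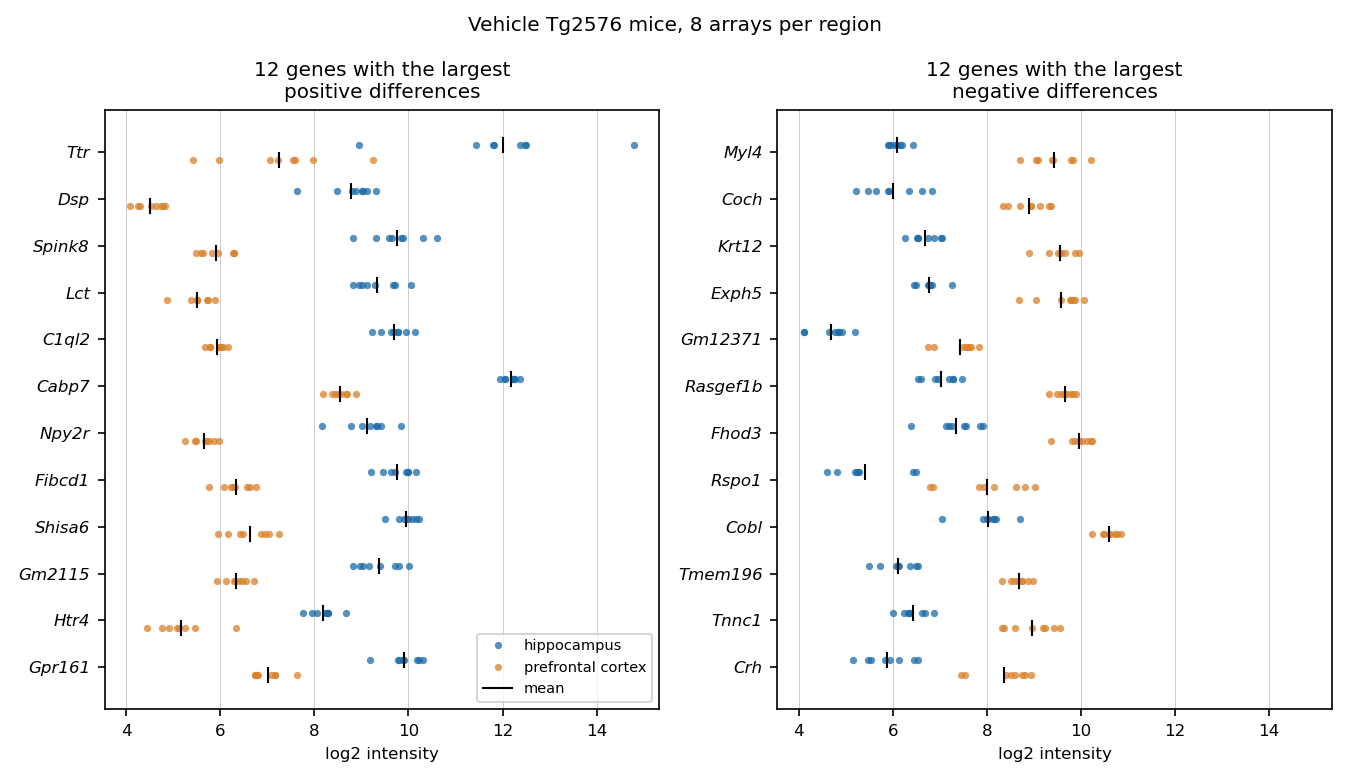
Log2 intensity of the 12 genes with the largest positive and the 12 with the largest negative differences. Each point is 1 array, blue for hippocampus and orange for prefrontal cortex of vehicle Tg2576 mice, and the bar is the mean of 8 arrays. For 23 of these 24 genes the regions do not overlap, and for Ttr the lowest hippocampal array (8.94) lies below the highest cortical array (9.25).

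Toward cortex, the largest difference was that of Myl4, a myosin light chain known from the heart atria. Myl4 read 5.90, 6.06 and 6.43 in hippocampus and 8.71, 9.40 and 10.22 in cortex, a difference of -3.35 ± 0.29 (adjusted p = 8.93e-15); its second probe set was not called. Krt12, a keratin known from the cornea, read 6.26, 6.64 and 7.04 in hippocampus and 8.90, 9.56 and 9.95 in cortex, a difference of -2.85 ± 0.24 (adjusted p = 2.33e-15). Tnnc1, the slow muscle troponin C, was lower in hippocampus at -2.53 ± 0.24. None of the arrays overlapped for these genes, which are all better known from tissues other than brain.

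Another 7 genes of the 12 largest differences toward cortex had mixed roles. Exph5, an effector of the GTPase Rab27, differed by -2.81 ± 0.22, the exchange factor Rasgef1b by -2.62 ± 0.23, the formin Fhod3 by -2.60 ± 0.28 and the actin nucleator Cobl by -2.57 ± 0.29. Rspo1, a secreted amplifier of Wnt signalling, read 4.60, 5.24 and 6.50 in hippocampus and 6.79, 8.04 and 9.03 in cortex, a difference of -2.59 ± 0.36 (adjusted p = 2.45e-08). The membrane protein gene Tmem196 differed by -2.56 ± 0.20 and the unannotated locus Gm12371 by -2.74 ± 0.27. No array overlapped for any of these 7 genes. In Exph5, hippocampal array 8 stood above the other hippocampal arrays, at 7.26 against a next value of 6.83.

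Transcription factors with roles in hippocampal development were mostly higher in hippocampus, with 8 of 13 tested genes higher and 2 lower and a median difference of 0.48. Zbtb20, a zinc finger repressor needed for the hippocampal fate of developing pallium, read 11.30, 11.41 and 11.57 in hippocampus and 8.997, 9.36 and 10.02 in cortex. The difference was 2.02 ± 0.23 (adjusted p = 7.03e-11), all 8 of its other probe sets were called the same way, and cortical array 6, at 10.02, lay above the rest of the cortex. The basic helix-loop-helix factors of the NEUROD family, which drive neuronal differentiation, differed by 1.01 ± 0.20 (Neurod6), 0.93 ± 0.10 (Neurod2) and 0.88 ± 0.13 (Neurod1), each without overlap between the regions.

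Promoter sequences are shown for genes of both directions that hold CAGATG, an E-box that NEUROD factors are known to bind. RefSeq promoters on GRCm38.p6, from 250 bases before to 50 after a gene's start, were matched for 94 of the 144 genes 2-fold higher and 191 of the 247 genes 2-fold lower in hippocampus. CAGATG or its reverse complement CATCTG stood in 17.0% of the first (16 promoters), in 12.04% of the second (23 promoters), in 11.6% of the promoters of the tested genes and in 17.2% of all 27025 promoters of the table. The palindromic cAMP response element TGACGTCA stood in 0 of 94, in 7 of 191 (3.67%) and in 3.16% of the tested genes' promoters. The MEF2 box, searched as CTA, 4 bases of any kind and TAG, which reads alike on both strands, stood in 0 of 94, in 9 of 191 (4.71%) and in 3.14%. Median GC content was 64.5% in the first group, 62.3% in the second and 61.0% over tested genes. These are matches of letters and say nothing of binding. The lines below give the 3 named genes with the largest difference in each direction whose promoter holds the E-box, which is in capitals:
Gpr161: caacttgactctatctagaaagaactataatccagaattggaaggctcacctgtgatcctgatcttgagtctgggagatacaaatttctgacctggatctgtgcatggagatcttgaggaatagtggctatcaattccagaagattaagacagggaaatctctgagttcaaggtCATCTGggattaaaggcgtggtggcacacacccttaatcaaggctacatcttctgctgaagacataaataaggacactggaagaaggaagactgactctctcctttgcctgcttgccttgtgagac
Epha6: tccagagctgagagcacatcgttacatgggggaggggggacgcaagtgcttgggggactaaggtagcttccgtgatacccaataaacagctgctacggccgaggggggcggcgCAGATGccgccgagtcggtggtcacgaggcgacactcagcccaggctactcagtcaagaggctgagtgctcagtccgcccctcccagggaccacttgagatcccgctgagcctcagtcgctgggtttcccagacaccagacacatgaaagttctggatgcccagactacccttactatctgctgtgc
Prox1: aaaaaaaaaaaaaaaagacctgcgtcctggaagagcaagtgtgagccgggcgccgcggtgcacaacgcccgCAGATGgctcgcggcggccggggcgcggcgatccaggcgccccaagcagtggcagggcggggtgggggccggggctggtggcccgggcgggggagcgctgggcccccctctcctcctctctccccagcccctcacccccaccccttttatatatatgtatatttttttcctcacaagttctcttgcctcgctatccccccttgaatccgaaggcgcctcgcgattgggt
Tnnc1: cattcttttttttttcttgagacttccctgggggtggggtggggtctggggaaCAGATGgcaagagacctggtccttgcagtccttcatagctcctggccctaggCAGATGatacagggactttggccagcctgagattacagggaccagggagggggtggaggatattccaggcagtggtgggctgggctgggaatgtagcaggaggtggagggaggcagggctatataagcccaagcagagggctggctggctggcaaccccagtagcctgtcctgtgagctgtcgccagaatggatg
Tac1: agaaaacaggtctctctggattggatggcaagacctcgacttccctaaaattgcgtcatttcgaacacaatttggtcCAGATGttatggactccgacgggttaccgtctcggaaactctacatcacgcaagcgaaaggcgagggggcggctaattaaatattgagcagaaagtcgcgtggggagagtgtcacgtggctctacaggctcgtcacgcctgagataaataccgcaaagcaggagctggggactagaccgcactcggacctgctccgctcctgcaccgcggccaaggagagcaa
Rims3: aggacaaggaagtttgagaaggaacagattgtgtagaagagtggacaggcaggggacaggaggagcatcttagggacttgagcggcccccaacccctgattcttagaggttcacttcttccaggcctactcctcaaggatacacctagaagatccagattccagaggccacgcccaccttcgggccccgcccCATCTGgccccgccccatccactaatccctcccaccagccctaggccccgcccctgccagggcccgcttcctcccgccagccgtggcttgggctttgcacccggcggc
Gpr161 lies at chr1:165295516-165295815 on the plus strand, Epha6 at chr16:60605482-60605781 on the minus strand and Prox1 at chr1:190170778-190171077 on the minus strand. Tnnc1 lies at chr14:31208062-31208361, Tac1 at chr6:7554811-7555110 and Rims3 at chr4:120854549-120854848, all on the plus strand. Counted in bases from the gene's start, the matches begin at -76 in Gpr161, -137 in Epha6, -179 in Prox1, -197 and -145 in Tnnc1, -173 in Tac1 and -58 in Rims3.

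Genes of upper cortical layers were mostly lower in hippocampus. Of 11 tested, 9 were lower in hippocampus and 1 was higher, with a median difference of -0.71. Cux2, a homeobox factor of layers II to IV, read 6.37, 7.51 and 8.08 in hippocampus and 9.14, 9.81 and 10.18 in cortex, a difference of -2.40 ± 0.30 (adjusted p = 8.81e-10). Mef2c, an activity-dependent transcription factor of excitatory neurons, read 10.22, 10.72 and 11.75 in hippocampus and 12.63, 12.98 and 13.10 in cortex, a difference of -2.22 ± 0.21 (adjusted p = 2.05e-13), and its 4 other probe sets were called the same way. Rorb, the nuclear receptor that marks layer IV, differed by -1.61 ± 0.20. The regions did not overlap in any of the 3. Hippocampal array 3 had the highest Mef2c, 11.75 against a next value of 10.91, and cortical array 6 the lowest cortical Cux2, 9.14 against 9.72. The exception, Mdga1, an adhesion protein that hinders synapse formation, was higher in hippocampus by 1.32 ± 0.13.

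Of 16 genes of deep layers and subplate, 3 were higher and 7 lower, beside 21.1% and 33.9% of all genes, with a median of -0.22. Foxp2, a forkhead factor of corticothalamic and striatal neurons, read 5.72, 6.35 and 7.45 in hippocampus and 8.02, 8.59 and 9.51 in cortex, a difference of -2.31 ± 0.30 (adjusted p = 3.58e-09). Tbr1, the T-box factor of layer VI, read 7.43, 7.91 and 8.21 in hippocampus and 9.27, 9.54 and 9.98 in cortex, a difference of -1.69 ± 0.18 (adjusted p = 1.05e-11). Neither overlapped. Ccn2, a growth factor gene that marks the subplate, was lower at -1.54 ± 0.46 with overlapping arrays, and Crym, which binds thyroid hormone, was higher by 1.24 ± 0.27.

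**Figure D2:**
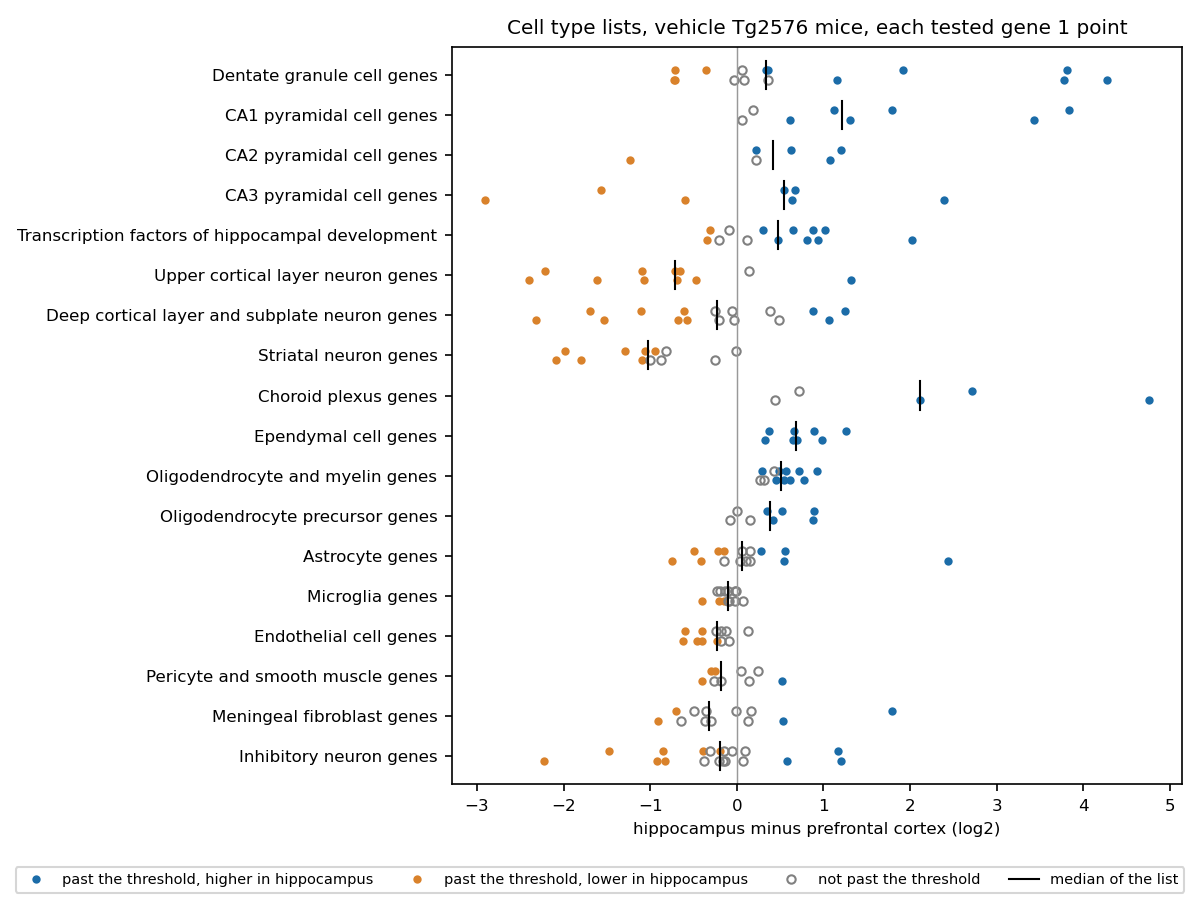
Difference between hippocampus and prefrontal cortex, on the log2 scale, for each tested gene of 18 lists. Filled points passed the threshold, open points did not, and the bar is the median of the list. The CA1 (1.22), choroid plexus (2.12) and ependymal (0.68) lists sit to the right, and the upper layer (-0.71) and striatal (-1.03) lists to the left.

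Striatal genes set some cortical arrays apart. The mean level of 12 tested striatal neuron genes lay between 7.80 and 8.08 in all 8 hippocampal arrays. In cortex it was 10.77 in array 6, 10.13 in array 8 and 9.53 in array 2, and 8.00 to 8.80 in the other 5. Of the 12 genes, 7 were lower in hippocampus than in cortex and none was higher, with a median of -1.03. Without cortical arrays 2, 6 and 8, a choice made after seeing these levels, 3 of the 12 were lower and the median was -0.40. Array 6 also had the lowest median correlation with its group, 0.982, against 0.987 to 0.992 in the other cortical arrays. How much of each cortical piece was striatum was not tested.

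Tac1, the precursor of substance P, read 8.21, 9.02 and 9.18 in hippocampus and 9.64, 10.85 and 13.02 in cortex, a difference of -2.09 ± 0.44 (adjusted p = 7.02e-05) that was -1.37 without the 3 arrays (adjusted p = 0.0117). Drd1, the dopamine D1 receptor, read 7.33, 7.56 and 7.89 in hippocampus and 7.58, 8.52 and 10.82 in cortex, a difference of -1.29 ± 0.41 (adjusted p = 0.00721) that was -0.54 without them (adjusted p = 0.288). Gpr6, a receptor of striatopallidal neurons, read 5.03, 5.33 and 5.91 in hippocampus and 5.08, 6.87 and 10.10 in cortex. It was called at -1.98 ± 0.71 (adjusted p = 0.0152), but did not pass without cortical array 6 (-1.59) nor without the 3 arrays (-0.80). Ppp1r1b, which encodes the dopamine-regulated phosphatase inhibitor DARPP-32, differed by -1.09 ± 0.33, and by -0.53 without the 3 arrays, where it was not called. Drd2, the D2 receptor, read 6.25, 6.47 and 6.88 in hippocampus and 5.50, 6.99 and 9.74 in cortex and was not called (-0.82 ± 0.54, adjusted p = 0.2), and its sign turned without the 3 arrays (0.23). Rarb, a retinoic acid receptor, kept a called difference, -1.79 ± 0.30 with and -1.30 without them. Among all 391 genes of the 2-fold class, 372 were called and 2-fold without the 3 arrays, where 443 genes were. The 391 had been picked with the remaining arrays included, so the 372 are no separate support.

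Choroid plexus and ependyma genes stood on the hippocampal side. Ttr, which encodes the thyroid hormone carrier transthyretin and is the most abundant transcript of the choroid plexus, had the largest difference of all 12950 genes. It read 8.94, 12.10 and 14.80 in hippocampus and 5.42, 7.39 and 9.25 in cortex, higher in hippocampus in 8 of 8 mice though the ranges overlapped, a difference of 4.76 ± 0.80 (adjusted p = 1.38e-06). Kl, the gene of the FGF23 coreceptor klotho, read 7.27, 7.81 and 9.34 in hippocampus and 4.86, 5.25 and 5.43 in cortex, a difference of 2.72 ± 0.37 (adjusted p = 1.62e-08). Sostdc1, a secreted antagonist of BMP and Wnt signalling, differed by 2.12 ± 0.47. Of 12 listed choroid genes, 5 were tested and 3 of these were higher, with a median of 2.12. The filter used the mean over all 64 arrays. Kl and Sostdc1 averaged 5.19 and 5.23 in cortex, under the filter level of 5.93, and 7.91 and 7.35 in hippocampus. As the mean of probe sets, 2 choroid genes were called higher, with a median of 1.37. The mean level of the 5 tested genes was 10.28 in hippocampal array 5 against 7.04 to 8.43 in the other 7. Without array 5 the list's median was 1.80 and the difference of Ttr 4.36.

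All 8 tested ependymal genes were higher in hippocampus, with a median of 0.68. Without hippocampal array 5, 5 of the 8 were called higher and none lower, with a median of 0.62. Within arrays 1 to 4 alone, and within arrays 5 to 8 alone, 5 were called higher. Tmem212 differed by 1.26 ± 0.23, Ccdc153 by 0.98 ± 0.19 and Foxj1, the master factor of motile cilia, by 0.90 ± 0.17. Each was higher in hippocampus in 8 of 8 mice. In cortex, Foxj1 averaged 5.56 and Tmem212 5.86, under the filter level of 5.93. The mean level of the list was likewise highest in hippocampal array 5, at 7.90, where Ccdc153 read 7.91 against a next value of 7.12.

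**Figure D3:**
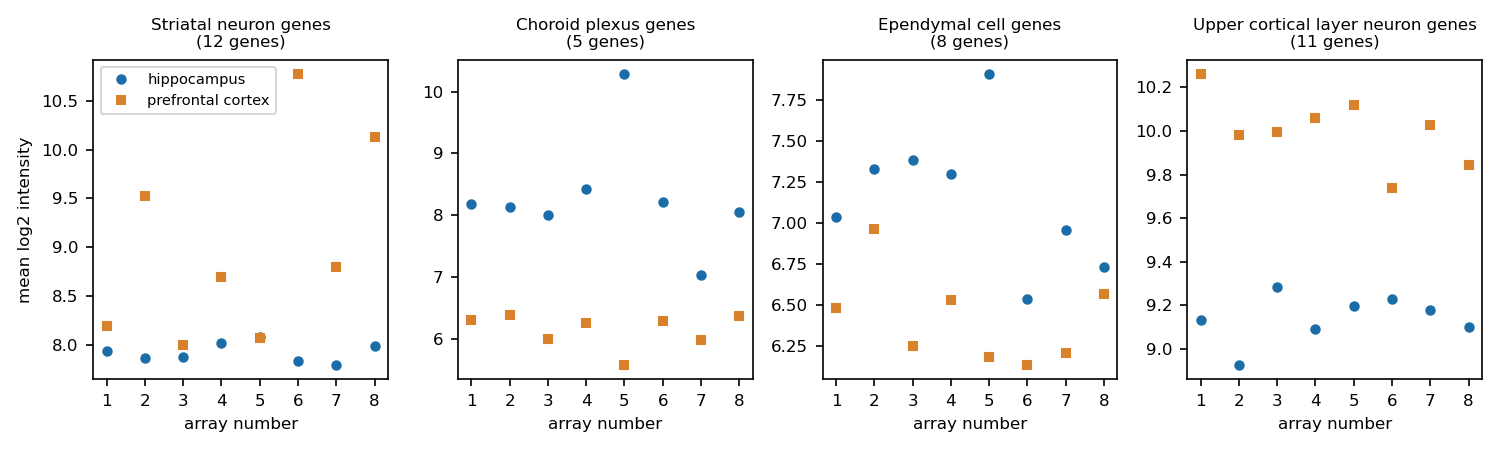
Mean log2 intensity over the genes of 4 lists in each array of vehicle Tg2576 mice, by array number. Circles are hippocampus and squares prefrontal cortex, and arrays of equal number were matched to 1 mouse. Striatal genes reach 10.77 in cortical array 6 and choroid plexus genes 10.28 in hippocampal array 5, while upper layer genes separate the regions in all 8 pairs.

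Glial lists differed by cell type. Of 12 oligodendrocyte and myelin genes, 9 were higher in hippocampus and none lower, with a median of 0.51. Fa2h, which hydroxylates the fatty acids of myelin lipids, differed by 0.93 ± 0.16, the myelin protein genes Mobp and Mag by 0.77 ± 0.18 and 0.72 ± 0.15. Within arrays 1 to 4 the list had 3 genes higher and within arrays 5 to 8 it had 12. Of 8 precursor genes, 5 were higher and none lower. Sox10, the lineage factor, differed by 0.89 ± 0.10 (adjusted p = 6.64e-11) and Cspg4, the NG2 proteoglycan, by 0.52 ± 0.06 (adjusted p = 1.1e-10), both without overlap.

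Of 15 astrocyte genes, 4 were higher and 5 lower, near the 21.1% and 33.9% of all genes. Gfap, the intermediate filament of reactive and fibrous astrocytes, read 11.79, 12.09 and 12.40 in hippocampus and 8.96, 9.68 and 10.02 in cortex, a difference of 2.44 ± 0.20 (adjusted p = 1.57e-15) with no overlap. Aqp4, the water channel of astrocyte endfeet, was higher by 0.55 ± 0.12, while Dio2, the deiodinase that makes active thyroid hormone, was lower at -0.74 ± 0.14.

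Of 12 endothelial genes, 6 were lower in hippocampus and none higher, with a median of -0.23. Slc2a1, the glucose transporter of the blood-brain barrier, differed by -0.62 ± 0.10 and Tek, the angiopoietin receptor, by -0.60 ± 0.11. Of 13 microglia genes, 3 were lower and none higher, all by small amounts: Aif1 at -0.40 ± 0.11, Csf1r at -0.20 ± 0.06 and Cx3cr1 at -0.15 ± 0.07. Both other probe sets of Csf1r, the receptor microglia need to survive, were called in the opposite direction, and the list's median was -0.10 as deposited and 0.04 with the signal range as a covariate. Within arrays 1 to 4 the microglia list had 5 genes lower and within arrays 5 to 8 it had 0. Meningeal genes had 2 of 12 higher and 2 lower, and pericyte genes 1 of 9 higher and 3 lower.

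Of 19 inhibitory neuron genes, 3 were higher in hippocampus and 7 lower, which is near the 21.1% and 33.9% of all genes. Lamp5, a lysosome-related protein of neurogliaform and of some pyramidal neurons, read 9.53, 10.10 and 10.69 in hippocampus and 11.80, 12.47 and 12.61 in cortex, a difference of -2.23 ± 0.17 (adjusted p = 1.77e-16). Vip, the vasoactive intestinal peptide, read 9.04, 9.42 and 9.69 in hippocampus and 10.33, 10.99 and 11.27 in cortex, a difference of -1.48 ± 0.20 (adjusted p = 1.16e-08). Kit, a receptor tyrosine kinase, was higher in hippocampus by 1.20 ± 0.17. Calb2, which encodes calretinin, of mossy cells and some interneurons, was higher by 1.17 ± 0.41 (adjusted p = 0.0127) with overlapping arrays, and did not pass with RNA quality as a covariate.

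Of 30 neuropeptide genes and peptide receptors, 5 were higher in hippocampus and 14 lower, with a median of -0.35. Npy2r, a receptor for neuropeptide Y on presynaptic terminals, read 8.15, 9.24 and 9.85 in hippocampus and 5.24, 5.70 and 5.98 in cortex, a difference of 3.48 ± 0.34 (adjusted p = 6.77e-13). At the other end, Crh, the corticotropin-releasing hormone, read 5.16, 5.89 and 6.53 in hippocampus and 7.44, 8.55 and 8.94 in cortex, a difference of -2.49 ± 0.23 (adjusted p = 8.71e-14). Cckbr, the receptor for cholecystokinin, read 7.47, 7.76 and 8.86 in hippocampus and 9.34, 10.14 and 10.36 in cortex, a difference of -2.16 ± 0.21 (adjusted p = 8.59e-13). No arrays overlapped for these 3 genes, though hippocampal array 3 read 8.86 for Cckbr against 7.96 for the next. Npy2r in cortex (5.65) and Crh in hippocampus (5.88) averaged under the filter level of 5.93.

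Glutamate receptors differed by subunit and by auxiliary protein. The AMPA group, which carries fast excitation, had 6 of 16 genes higher and 6 lower. Its core subunit Gria1 read 12.13, 12.39 and 12.41 in hippocampus and 10.95, 11.04 and 11.27 in cortex, a difference of 1.28 ± 0.12 (adjusted p = 9.43e-14). The auxiliary proteins, which tune gating and trafficking, went both ways. Shisa6 was higher by 3.31 ± 0.22 (adjusted p = 1.54e-18) and Cnih2 by 1.58 ± 0.11 (adjusted p = 2.99e-18), while Gsg1l was lower at -1.46 ± 0.20 (adjusted p = 1.32e-08). None of these 4 overlapped between regions.

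Of 12 NMDA and kainate genes, 5 were higher and 2 lower. The 2 lower ones were Grik3, a kainate subunit, at -1.69 ± 0.23, and Neto2, an auxiliary protein of kainate receptors, at -0.69 ± 0.08. Grik4, a kainate subunit of CA3, was higher by 0.64 ± 0.11 and the NMDA subunit Grin2d by 0.60 ± 0.09. Of 6 metabotropic receptors, Grm5 was higher by 0.36 ± 0.10, and 3 were lower, among them Grm3 at -0.70 ± 0.09 and Grm8 at -1.35 ± 0.25. Cortical array 6 had the highest cortical Grm5, 11.26 against 10.84 for the next.

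GABA receptor subunits went both ways, with 3 of 10 higher and 5 lower. Gabrd, the delta subunit of extrasynaptic receptors, read 7.79, 8.14 and 8.38 in hippocampus and 9.63, 10.05 and 10.22 in cortex, a difference of -1.89 ± 0.11 (adjusted p = 1.11e-20). Gabra5, the alpha subunit of tonic inhibition on pyramidal dendrites, read 9.96, 10.43 and 10.66 in hippocampus and 8.41, 8.67 and 9.09 in cortex, a difference of 1.69 ± 0.17 (adjusted p = 3.59e-12). Of the other alpha subunits, Gabra2 was higher by 1.08 ± 0.17 and Gabra3 lower at -1.62 ± 0.20, and none of the 4 genes overlapped. Lowest in cortex for Gabrd was array 8, at 9.63 against a next value of 9.95.

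Ion channel genes differed in both directions. Of 33 potassium channel genes, 5 were higher in hippocampus and 17 lower, with a median of -0.27. Within arrays 1 to 4 there were 19 lower and within arrays 5 to 8 there were 9. The 4 with the largest differences were all lower without overlap: Kcnv1 and Kcnf1, silent subunits that modify other channels, at -1.45 ± 0.12 and -1.34 ± 0.16, and the ether-a-go-go type channels Kcnh7 and Kcnh1 at -1.30 ± 0.15 and -1.20 ± 0.14. Of 22 sodium, calcium and HCN channel genes, 6 were higher and 9 lower, near the shares of all genes, with a median of -0.15 as deposited and -0.06 after quantile normalization. The sodium channel beta subunits parted, Scn3b being higher by 1.28 ± 0.14 and Scn4b, of resurgent current, lower at -1.88 ± 0.24. Cacna1h, a T-type calcium channel, was higher by 1.24 ± 0.15, and the beta subunit Cacnb4 lower at -1.18 ± 0.13.

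Of 13 serotonin, dopamine and adrenergic receptors, 4 were higher and 5 lower. Htr4, a Gs-coupled serotonin receptor, read 7.75, 8.25 and 8.67 in hippocampus and 4.45, 5.09 and 6.33 in cortex, a difference of 3.02 ± 0.33 (adjusted p = 3.42e-11), and the Gi-coupled Htr1a was higher by 0.83 ± 0.13. Htr1f was lower at -0.84 ± 0.12 and the adrenergic receptor Adra1b at -1.55 ± 0.18. In Htr1a, cortical array 6 stood below the other cortical arrays, at 7.66 against 8.05. Of 8 cholinergic genes, 3 were higher, namely Chrna7, the alpha-7 nicotinic receptor (0.62 ± 0.14), Chrm1, the main postsynaptic muscarinic receptor (0.37 ± 0.08), and Ache, acetylcholinesterase (0.36 ± 0.12). The nicotinic subunit Chrna4 was lower at -0.40 ± 0.13. Chrna7 differed by 0.23 within arrays 1 to 4, where it was not called, and by 1.02 within arrays 5 to 8, and the calls of Ache and Chrna4 also held in only 1 of these sets.

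Cyclic GMP, the second messenger that PDE9A breaks down, is made by the nitric oxide receptor guanylyl cyclase and acts through protein kinase G. Of 16 tested genes of its synthesis, breakdown and kinases, 2 were higher in hippocampus and 7 lower, with a median of -0.24. Gucy1a1, the alpha subunit of the cyclase, read 8.51, 9.22 and 9.47 in hippocampus and 10.77, 10.94 and 11.36 in cortex, a difference of -1.84 ± 0.14 (adjusted p = 3.34e-17). Its partner Gucy1b1 differed by -0.78 ± 0.06 (adjusted p = 8.8e-17) and Prkg2, a cyclic GMP-dependent kinase, by -1.61 ± 0.22 (adjusted p = 1.46e-08). No arrays overlapped in these 3 genes. Nos1, the neuronal nitric oxide synthase upstream of the cyclase, was higher in hippocampus by 0.75 ± 0.13.

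Pde9a itself, the target of PF-04447943, read 7.08, 7.42 and 7.93 in hippocampus and 7.54, 7.67 and 7.85 in cortex and was not called (-0.22 ± 0.12, adjusted p = 0.123). It passed without hippocampal array 5, at -0.29, and within arrays 1 to 4, at -0.40. Pde10a, a phosphodiesterase abundant in striatum, was called at -0.94 ± 0.37 (adjusted p = 0.0272) but not without cortical array 6 (-0.66), without array 8 (-0.75) or without arrays 2, 6 and 8 (-0.26). Among 14 cyclic AMP phosphodiesterases and cyclases, 2 were higher and 8 lower. Pde7b read 8.54, 8.70 and 8.83 in hippocampus and 10.37, 10.60 and 11.43 in cortex, a difference of -2.02 ± 0.15 (adjusted p = 3.59e-17), and -1.81 without the 3 arrays. Pde4d and Pde4b, of the rolipram-sensitive family, differed by -0.51 ± 0.08 and -0.49 ± 0.10. Adcy5, the main striatal cyclase, differed by -0.67 ± 0.23, and it did not pass without cortical array 6 (-0.49) or as a mean of its probe sets (-0.13).

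**Figure D4:**
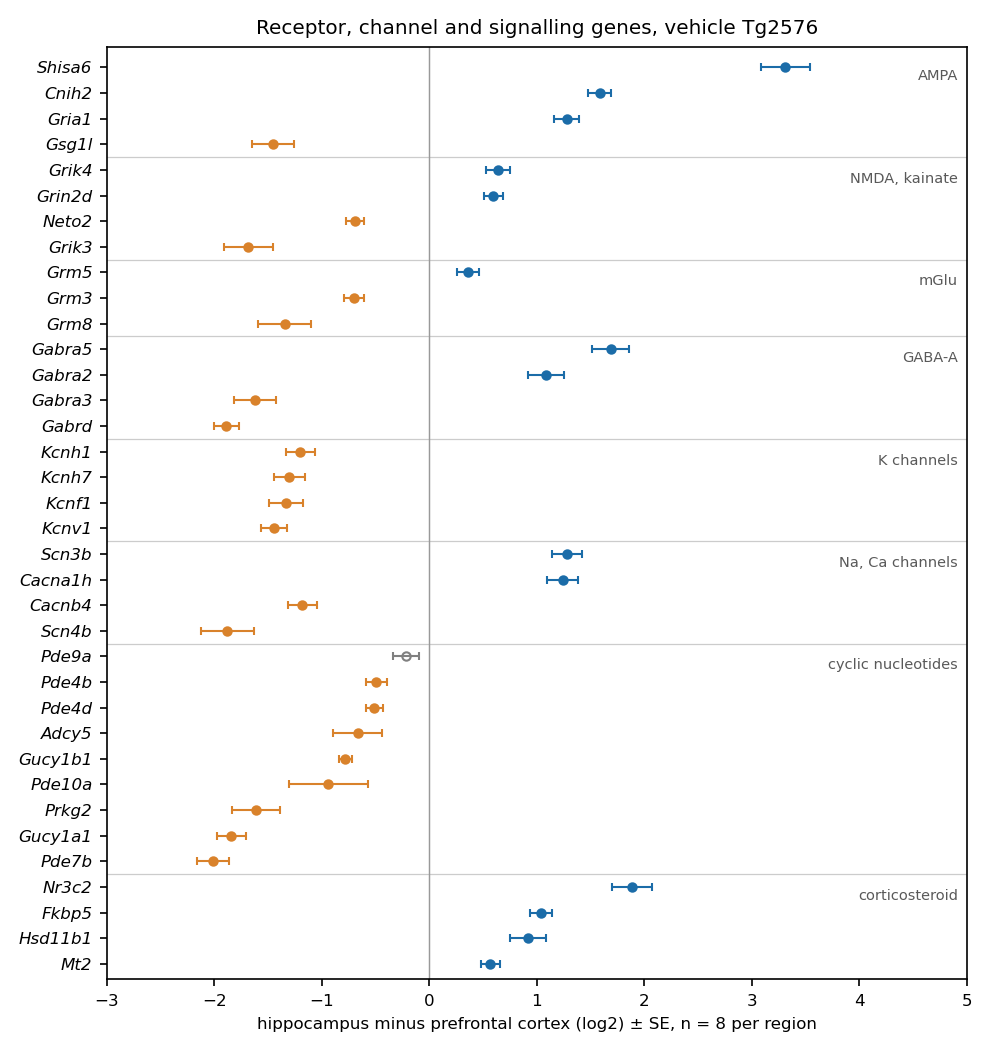
Difference between hippocampus and prefrontal cortex, on the log2 scale, with its standard error, for receptor, channel and signalling genes. Filled points passed the threshold and the open point, Pde9a, did not. Within the AMPA and GABA-A groups genes lie on both sides, and the plotted potassium channel and cyclic nucleotide genes other than Pde9a lie at -0.49 or below. Higher in hippocampus but not plotted were 5 of 33 potassium channel, 2 of 16 cyclic GMP and 2 of 14 cyclic AMP genes.

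Corticosteroid signalling showed 5 of 11 genes higher and 2 lower, with a median of 0.22. Nr3c2, the mineralocorticoid receptor that binds corticosterone with high affinity, read 10.01, 10.28 and 10.44 in hippocampus and 8.26, 8.38 and 8.41 in cortex, a difference of 1.88 ± 0.19 (adjusted p = 1.33e-12), with no overlap. Fkbp5, a receptor cochaperone induced by glucocorticoids, was higher by 1.04 ± 0.10, Hsd11b1, which regenerates active corticosterone, by 0.92 ± 0.16 and the metallothionein Mt2 by 0.57 ± 0.09.

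Of 46 axon guidance genes, which steer growing axons and shape synapses, 25 were higher and 13 lower in hippocampus, with a median of 0.37. Epha6, an ephrin receptor, read 8.65, 9.02 and 9.27 in hippocampus and 6.64, 6.87 and 7.27 in cortex, a difference of 2.04 ± 0.20, and Slit1, a repulsive ligand of Robo receptors, was higher by 1.78 ± 0.14. Sema3a, a repulsive semaphorin, read 6.43, 6.88 and 7.60 in hippocampus and 8.63, 9.25 and 9.78 in cortex, a difference of -2.28 ± 0.19, and the ephrin ligand Efna5 differed by -1.97 ± 0.26. None of the 4 overlapped. Among 18 cadherins, 5 were higher and 7 lower. The protocadherin Pcdh20 was higher by 2.33 ± 0.25, and Pcdh7, Cdh6 and Pcdh10, adhesion proteins likewise, were lower at -1.47 ± 0.20, -1.42 ± 0.20 and -1.26 ± 0.10.

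Immediate early genes varied widely from array to array. Fos, a transcription factor induced within minutes of firing, read 6.73, 8.36 and 10.17 in hippocampus and 7.62, 10.07 and 10.99 in cortex, a difference of -1.26 ± 0.41 (adjusted p = 0.00792). Egr2, another induced factor, read 4.31, 5.41 and 7.11 in hippocampus and 4.72, 7.25 and 7.88 in cortex, a difference of -1.34 ± 0.39 (adjusted p = 0.00333). Neither passed within arrays 1 to 4 alone. Dusp1, a phosphatase of MAP kinases, differed by -1.47 ± 0.23. Of 20 such genes, 3 were higher and 8 lower, beside 21.1% and 33.9% of all genes. The largest of the 3 positive differences was that of the nuclear receptor gene Nr4a3, which read 10.63, 11.12 and 11.22 in hippocampus and 8.22, 9.33 and 9.71 in cortex, without overlap, a difference of 1.81 ± 0.23 (adjusted p = 2.83e-09). Bdnf, the neurotrophin, was called at 0.58 ± 0.23 (adjusted p = 0.0289), but it did not pass without hippocampal array 2 (0.54) or 4 (0.51), without cortical array 6 (0.41) or 8 (0.48), or without cortical arrays 2, 6 and 8 (0.27).

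Of 26 calcium-dependent kinase and phosphatase genes, 9 were higher and 10 lower. Prkcd, the delta form of protein kinase C, was higher by 1.64 ± 0.23, and its hippocampal array 8 was low, at 7.49 against a next value of 8.53. Genes of the CaM kinase cascade, in which CaMKK2 activates CaMKI and CaMKIV, were among the lower ones: Camkk2 at -1.26 ± 0.11, Camk1 at -1.31 ± 0.12 and Camk4 at -1.26 ± 0.10. Camk4 also had 1 probe set called the other way, at 0.35. Genes with such a probe set numbered 4 in the 2-fold class, out of 186 with more than 1 probe set. The others were Il16, an interleukin precursor gene (2.30 ± 0.19 with an opposing -0.27), Ighm, an immunoglobulin heavy chain gene (-1.13 ± 0.24 with 0.49), and Ptprk, a receptor phosphatase gene (-1.14 ± 0.11 with 0.61).

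At the synapse, 8 of 21 scaffold genes were higher and 4 lower, beside 21.1% and 33.9% of all genes. The scaffold list's median was 0.09, with differences from -1.01 to 2.39. The 4 lower ones included Dlg1 (SAP97) at -1.01 ± 0.08 and Homer1 at -0.95 ± 0.09. Of 29 vesicle release genes, 7 were higher and 13 lower, beside the same shares of all genes. Rims3, of the active zone, differed by -1.79 ± 0.28, the SNARE protein gene Stx1a by -1.56 ± 0.13 and the priming factor gene Unc13c by -1.54 ± 0.25, each without overlap.

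App, the gene of the amyloid precursor protein, and Prnp were close in level between the regions. App read 13.94, 13.98 and 14.01 in hippocampus and 13.85, 13.88 and 13.89 in cortex, with no overlap and a difference of 0.11 ± 0.03 (adjusted p = 0.0014). It did not pass after centring each array on its median (0.08) or as the mean of its probe sets (0.01), and whether the probe set also binds the human transgene's RNA was not tested. Prnp, whose promoter type drives the transgene, read 13.43, 13.60 and 13.72 in hippocampus and 13.51, 13.58 and 13.72 in cortex and was not called (adjusted p = 0.942). Of 18 genes of precursor processing, 4 were higher and 7 lower. Within arrays 1 to 4 this list had 7 lower and within arrays 5 to 8 it had 0. Apba1, an adaptor that binds the precursor, was higher by 0.60 ± 0.08. Aph1a, of gamma-secretase, and Bace1, the beta-secretase, were lower at -0.48 ± 0.08 and -0.35 ± 0.09. For both, the difference was not called within arrays 5 to 8, at -0.20 and -0.03.

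Of 14 genes of amyloid-beta degradation and clearance, 6 were higher and 2 lower. Mme, the protease neprilysin, was lower at -1.14 ± 0.25, and A2m, a protease-trapping carrier, higher by 0.98 ± 0.21. Of 17 genes of tau and its kinases and phosphatases, 4 were higher and 12 lower as deposited, and 4 higher and 7 lower after quantile normalization. Differences over the tau list ran from -0.54 to 0.52 as deposited, with a median of -0.21. Among the 4 higher genes were the microtubule kinase Mark4 at 0.52 ± 0.09 and the microtubule-associated protein Map1b at 0.52 ± 0.07.

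Of 12 genes of adult neurogenesis and the cell cycle, 5 were higher and 4 lower. Hopx, a marker of quiescent neural stem cells and of astrocytes, was higher by 1.38 ± 0.30, while Dcx, doublecortin of immature neurons, was lower at -0.96 ± 0.14. Cholesterol synthesis and uptake genes, which supply membranes and myelin, had 1 of 18 higher and 13 lower, with a median of -0.31. Stard4, a sterol carrier, differed by -0.71 ± 0.11 and Insig1, a brake on sterol synthesis, by -0.49 ± 0.09. Within arrays 5 to 8 this list had 1 higher and 3 lower, with a median of -0.11.

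The difference between the regions was set beside that of Tg2576 mice under PF-04447943 and of WT littermates under vehicle, which share no array with the 16. In Tg2576 mice under PF-04447943, 5365 genes (41.4%) differed between the regions, 300 of them 2-fold (2.32%), and in WT mice under vehicle 5819 (44.9%), 387 of them 2-fold (2.99%). All 391 genes of the 2-fold class had the same sign in both. Of the 391, 386 were called the same way in PF-04447943-treated Tg2576 mice and 387 in WT mice. The 2-fold classes shared 284 genes with the drug-treated mice, which is 72.6% of the 391 and 94.7% of their 300, and 325 with WT mice, which is 83.1% of the 391 and 84.0% of their 387. Over these 391 genes, the median size was 1.36 in vehicle Tg2576 mice, 1.23 in PF-04447943-treated Tg2576 mice and 1.33 in WT mice. The 391 were picked for size in the first of these, so a smaller size elsewhere is no finding.

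Single genes show the values. Dsp differed by 4.27 ± 0.35 in vehicle Tg2576 mice, 3.81 in PF-04447943-treated Tg2576 mice and 4.75 in WT mice. Gucy1a1 gave -1.84, -1.64 and -1.75 in the same order, Gfap 2.44, 2.19 and 2.31, and Coch -2.90, -2.57 and -2.02.

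Tests of the change itself called no gene. For the region difference in Tg2576 minus that in WT mice, 0 of 12950 genes passed with limma, and 441 had an unadjusted p under 0.05. The smallest p-values belonged to Mcu, the mitochondrial calcium uniporter (0.16 in Tg2576 and 0.43 in WT mice), Cenpo, of the kinetochore (0.27 and -0.04), and Ppat, of purine synthesis (-0.49 and -0.11), all at an adjusted p of 0.976. For the region difference in Tg2576 mice under PF-04447943 minus that under vehicle, 0 genes passed and 598 had an unadjusted p under 0.05. Here Lmtk3, a membrane kinase of neurons (0.43 under PF-04447943 and 1.01 under vehicle), the sugar transporter gene Slc5a10 (-0.03 and 0.34) and the phosphate transporter family gene Slc17a2 (-0.15 and 0.29) came first, at an adjusted p of 0.807. A p that misses the threshold does not show that the regions differ alike.

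**Figure D5:**
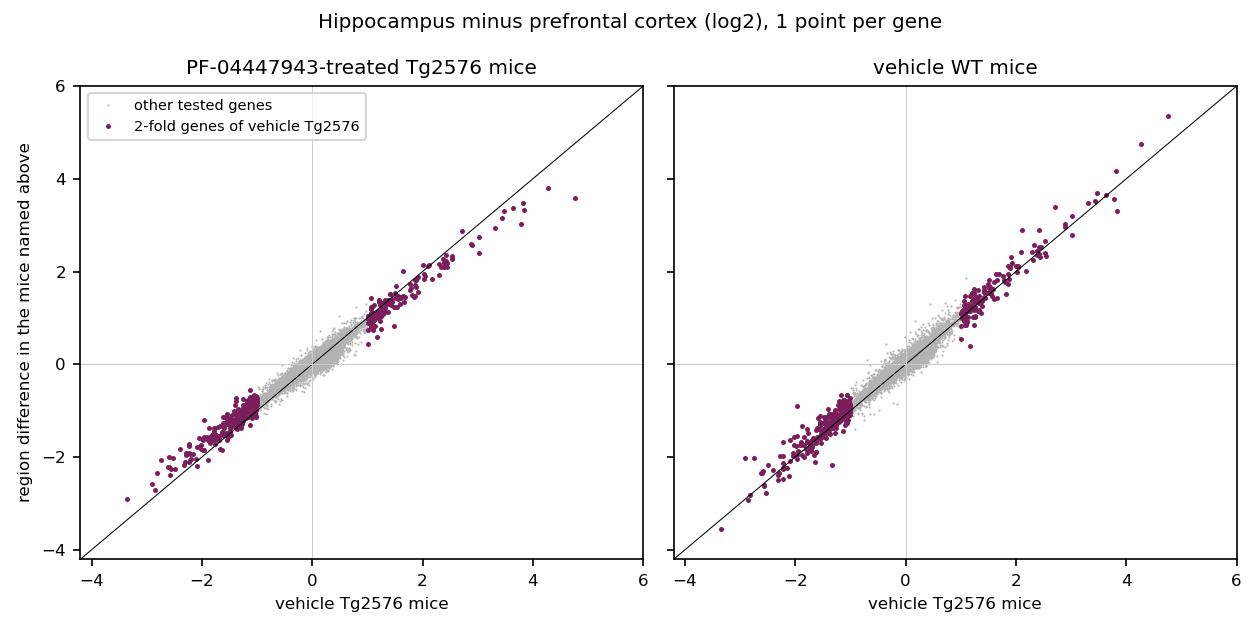
Region difference of each of 12950 genes, on the log2 scale, in vehicle Tg2576 mice (horizontal) against PF-04447943-treated Tg2576 mice (left) and vehicle WT mice (right), with the line of equal values. The 391 genes called and 2-fold in vehicle Tg2576 mice are dark and keep their sign in both panels.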

How the data were processed

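The authors deposited 1 intensity value per probe set and array, which the submitters' processing notes name as RMA values; the software version is not given in the sources used here, nor whether all arrays were normalized together. The intensities, from 5.87 to 34088.93 over 45101 probe sets, were not logged and were turned into log2 here. RMA summarises probes and compresses low signals, so small differences of dim genes are understated. Probe sets were named through the platform annotation: 34945 had 1 gene symbol, 932 several and 9160 none, with 64 controls. Of 18193 genes, each read from whichever of its probe sets was brightest on average, 12950 lay above the 40th percentile of intensity (log2 5.93) and were tested. One limma fit (version 3.58.1 in R 4.3.3) over all 64 arrays and 8 groups gave the contrasts, with Benjamini-Hochberg adjustment, two-sided. It was tested on simulated data.

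Genes were named by a rule: the 12 largest differences each way, up to 4 called genes per list, Pde9a, App and Prnp, the 3 smallest p of each contrast of contrasts and the 3 widest ranges per region. The 49 lists hold 854 genes, of which 725 were tested. The members, lists and rule were chosen with earlier results of these data known. The design text gives 8 mice per group. Labels do not say that a number marks a mouse: 32 probe sets with 2 separate levels (gap of at least 0.7) matched all 8 vehicle Tg2576 pairs by number, with at most 1 differing level against at least 5 for the next best array, and 26 of 32 pairs in all. The number of arrays limits the precision. Alternatives covered the filter, probe set choice, scaling, variance model, covariates, pairing and arrays left out. Python 3.11.15 with SciPy 1.17.1 ran the permutation tests.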

Additional observations from a re-analysis of the deposited data

Results flagged for a closer look

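In groups of 8 arrays, the highest or lowest array was set against its nearest neighbour with Dixon's 95% critical value for 8 samples. Of 362 tests over the named genes and cell type lists, 23 passed, and chance gives about 1 in 20 (5%). The 23 of 362 are near that share, and the tests are not independent, since a list's mean level holds its members. The arrays that stood apart carried the numbers 2, 3, 5, 6 and 8, and no cause was tested.

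Hippocampal array 5 was highest in choroid plexus genes (mean level 10.28, next 8.43), in Kl (9.34, next 8.13), in Sostdc1 (9.56, next 7.41) and in the ependymal gene Ccdc153 (7.91, next 7.12), and lowest in Chrm1 (10.67, next 10.93). Hippocampal array 3 was highest in Mef2c (11.75) and Cckbr (8.86), which are cortical genes here, and lowest in Gpr161 (9.17), which is a hippocampal one. Hippocampal array 6 was highest in microglia genes (mean level 9.31, next 9.01) and Csf1r (11.74). Hippocampal array 2 was lowest in Tac1 (8.21) and Pde4d (9.49), and array 8 was lowest in Prkcd (7.49) and highest in Exph5 (7.26).

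Cortical array 6, the highest of all in striatal genes, was also the highest cortical array in Zbtb20 (10.02), Grm5 (11.26) and Pde7b (11.43) and the lowest in Cux2 (9.14), Htr1a (7.66) and CA3 genes (mean level 8.204, next 8.557). Cortical array 8, also high in striatal genes, was lowest in Gabrd (9.63) and Camk4 (11.22). Cortical array 5 was lowest in Cspg4 (7.15).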

How the results depend on the processing

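The count of 7114 genes lay between 5492 and 8492 under the alternatives in filter, scaling, variance model, covariate and threshold, apart from 13392 when all 27022 probe sets were tested, where more features enter; the 391 genes of the 2-fold class became 737 there and lay between 296 and 425 under the others. Leaving out each array in turn gave 6567 to 7254 genes, and 367 to 411 in the 2-fold class. With the number as a block, the paired fit gave 6970 genes and 391, all the same genes, and with the matched mouse 7222 and 392; it changed no named gene's call and left both contrasts of contrasts at 0. The following settings were chosen after seeing the data. Arrays 5 to 8 alone gave 3779 genes (2317 higher, 1462 lower), against 8141 (2336 and 5805) in arrays 1 to 4, and fewer arrays enter both. In arrays 1 to 4 alone, the contrast of Tg2576 with WT mice called 2 genes, Orc5 (-0.53) and 1600012P17Rik (0.67), and that of PF-04447943 with vehicle called 1, Adap2 (-0.51); the cause was not tested. Without cortical arrays 2, 6 and 8 there were 7015 genes (443 2-fold). The signal range difference was -0.204 to -0.150 with each array left out and turned to 0.060 in arrays 5 to 8. With the pairing by number it did not pass, either over all 8 pairs (-0.180, exact paired permutation p = 0.109) or in arrays 1 to 4 (-0.420, p = 0.125), where 4 pairs cannot reach the threshold.

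Of 168 values of 162 named genes, 136 kept their direction and call under every alternative that could be run for them. Signs turned for Csf1r as the mean of its probe sets (0.10), for Wfs1 in arrays 5 to 8 (-0.027) and for Drd2 without cortical arrays 2, 6 and 8 (0.23) or these and hippocampal array 5 (0.18); the cause was not tested. Prnp, near 0, was positive as the mean of its probe sets (0.017), after quantile normalization (0.021), with array weights (0.018), in arrays 5 to 8 (0.0025) and without cortical arrays 2, 6 and 8 (0.0063), and ranged from -0.0212 to 0.0216 with each array left out. The share of higher genes among the called moved with scaling: 32.7% (2255 against 4646) after centring on the median, 38.4% as deposited, 51.3% (3510 against 3333) after quantile normalization and 47.1% without the filter. In the 2-fold class it was 33.7%, 36.8%, 43.4% and 37.9% in the same order, and 47.2% with the signal range as a covariate. Dim genes near the background limit what a difference can show.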

Other observations

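The lists not described above gave the following counts, beside 21.1% of all tested genes higher and 33.9% lower in hippocampus. Of 22 oxidative phosphorylation genes, 1 was higher and 11 were lower in hippocampus, with a median of -0.08, close to the -0.06 of all genes tested. Within arrays 1 to 4 there were 14 lower and within arrays 5 to 8 there were 2, beside 5805 and 1462 of all genes tested. Of 13 cytosolic ribosomal protein genes, 1 was higher and 5 were lower (median -0.09). Of 20 perineuronal net and matrix genes, 6 were higher and 5 lower, and of 13 interferon and antigen presentation genes 4 were higher and 2 lower. Of 16 thyroid hormone and retinoid genes, 3 were higher and 10 lower, with a median of -0.45. Of 22 Wnt signalling genes, 4 were higher and 10 lower, of 13 neurotrophin and CREB genes 6 and 3, and of 9 opioid and cannabinoid genes 4 and 3. Over all 12950 genes, the region differences of Tg2576 mice and of WT mice under vehicle had a Pearson r of 0.959, a value across genes, which are not independent replicates.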
